A study of Mus musculus with 16 samples.

Results

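The 10 genes described here take up, store, release and sense cellular iron: Tfrc, Fth1, Ftl1, Ncoa4, Ireb2, Aco1, Slc11a2, Slc40a1, Hmox1 and Pcbp1. They were taken by their Ensembl gene identifiers from all genes counted, which were 55335 in the libraries that carry an age and 54532 in those that do not, and all 10 were listed in both. The study sequenced RNA of mouse thymic double-positive (DP) cells, the CD4 and CD8 expressing stage of T cell development, after flow cytometry sorting. Its title ties METTL3, the enzyme that writes N6-methyladenosine on RNA, to ferroptosis, a form of cell death that depends on iron, in the ageing thymus. With an age came 3 libraries of young WT, 4 of old WT and 3 of young METTL3 KO mice. A further set held 3 of WT and 3 of METTL3 KO mice for which the labels state no age. The labels give no strain, no age in weeks, no allele or Cre driver for the KO, and no treatment. Nothing in them says that replicates came from separate animals, so every p-value measures the spread between these samples, which may in part be technical. Both sexes, read from Xist and Y-linked genes, were found in every group except WT without an age. The libraries of those groups were therefore not all from the same animal.

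Iron enters most cells as transferrin, bound by the transferrin receptor at the surface, and leaves the endosome through a divalent metal transporter. Iron that is not used at once is stored inside ferritin, a shell of heavy and light chains, and is recovered when a cargo receptor takes ferritin to the lysosome. Iron regulatory proteins (IRPs) sense the cytosolic iron pool by binding hairpins in mRNA called iron-responsive elements (IREs). Bound in a 5' UTR, as in the ferritin mRNAs, they hold back translation. Bound in the 3' UTR of the transferrin receptor mRNA, they protect it from decay. Dividing thymocytes take up much iron through this receptor. Since IRPs set ferritin mainly at translation, mRNA levels do not give protein levels.

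These hairpins are printed because the mRNA levels below belong to transcripts on which the IRPs act at opposite ends. Each is 29 bases, 5' to 3' on the gene's strand, read from the GENCODE transcripts of mm10, with the 6 bases of the loop in capitals. The pattern searched was a bulged C, 5 paired bases, a loop of CAGTGN, and at least 3 of 5 further pairs below the bulge. It was found in 86 of 21901 coding genes' transcripts (0.393%), and in 39 (0.178%) outside the coding sequence. Tfrc held 4 in its 3' UTR, and Fth1, Ftl1 and Slc40a1 held 1 each in the 5' UTR. No annotated coding transcript of Slc11a2 held an element of this form.
Tfrc 1, chr16:32631219-32631247, plus strand: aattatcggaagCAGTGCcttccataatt
Tfrc 2, chr16:32631598-32631626, plus strand: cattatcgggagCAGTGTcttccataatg
Tfrc 3, chr16:32631663-32631691, plus strand: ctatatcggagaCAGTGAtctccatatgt
Tfrc 4, chr16:32631710-32631738, plus strand: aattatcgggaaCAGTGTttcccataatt
Fth1, chr19:9982732-9982760, plus strand: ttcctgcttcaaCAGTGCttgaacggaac
Ftl1, chr7:45459779-45459807, minus strand: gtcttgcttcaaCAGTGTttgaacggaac
Slc40a1, chr1:45925465-45925493, minus strand: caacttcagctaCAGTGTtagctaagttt

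The depth was 9781368 to 10307780 gene counts a library in the set with an age. In the other set it was 15927134 to 16167074 for WT and 10575795 to 13740694 for the KO. Mettl3, read as a check of the labels, was not lower in libraries labelled young KO than in young WT (63.7 ± 1.33 and 63.8 ± 3.66 CPM, log2 difference 0.00 ± 0.08, adjusted p = 1), and in the set without an age it was lower in the KO (-0.58 ± 0.18, adjusted p = 0.0189, edgeR). In that comparison 24% of all genes were called lower. The KO difference in Mettl3 was not called unequal between the sets (-0.41 ± 0.19, adjusted p = 0.106, edgeR). Directions below are therefore those of libraries labelled KO. DP markers, among them Cd4, Cd8a and Rag1, were present in every group and summed to 10456 to 13779 CPM (counts relative to the library's total, after TMM scaling) in the KO without an age, against 19485 to 21281 in its WT. The sets differ in the share of reads not aligned (50.5% to 52.2% without an age, at most 0.826% with one). They also differ in the share of entries counted outside genes (7.23% to 15.0% without an age, 47.5% to 51.2% with one). Levels were therefore compared within a set only. In sorted bulk RNA, fewer cells of a type and less RNA per cell cannot be told apart.

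Ferritin was the most abundant of these transcripts. Per kilobase of the principal transcript, young WT libraries had 341 ± 12.6 CPM of Fth1 (heavy chain, the ferroxidase that loads iron) and 326 ± 11.4 CPM of Ftl1 (light chain), levels that do not differ beyond their spread (SD, n = 3). Pcbp1, an iron chaperone that delivers iron to ferritin, followed at 176 ± 11.9. Tfrc, the transferrin receptor, had 33.6 ± 0.83, Ireb2, which encodes IRP2, 30.0 ± 1.13, and Ncoa4, the cargo receptor that takes ferritin to the lysosome, 23.2 ± 0.92. Aco1, which encodes IRP1, a protein that doubles as cytosolic aconitase, had 12.3 ± 1.04, and Slc11a2, the divalent metal transporter DMT1, 11.3 ± 0.40, which do not differ beyond their spread. Hmox1, heme oxygenase 1, which frees iron from heme, was at 1.44 ± 0.42, and Slc40a1, the iron exporter ferroportin, at 0.118 ± 0.05.

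More of Fth1 than of 99.4% of the coding genes was found per length in young WT, and Tfrc stood above 88.6% and Ncoa4 above 83.5% of them. Fth1, Ftl1 and Pcbp1 held ranks 1 to 3 by this measure in all 5 groups. Dividing by all exons of each gene in place of 1 transcript put Ftl1 first in 4 of these groups, so the order of the leading 3 depends on the length used. By the principal transcript, ranks 9 and 10 were those of Hmox1 and Slc40a1 in every group, and Ncoa4 stood at rank 8 in the KO without an age, against rank 6 in the other 4 groups. By all exons, Ncoa4 was at rank 9 and Hmox1 at rank 8 in that KO.

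**Figure D1:**
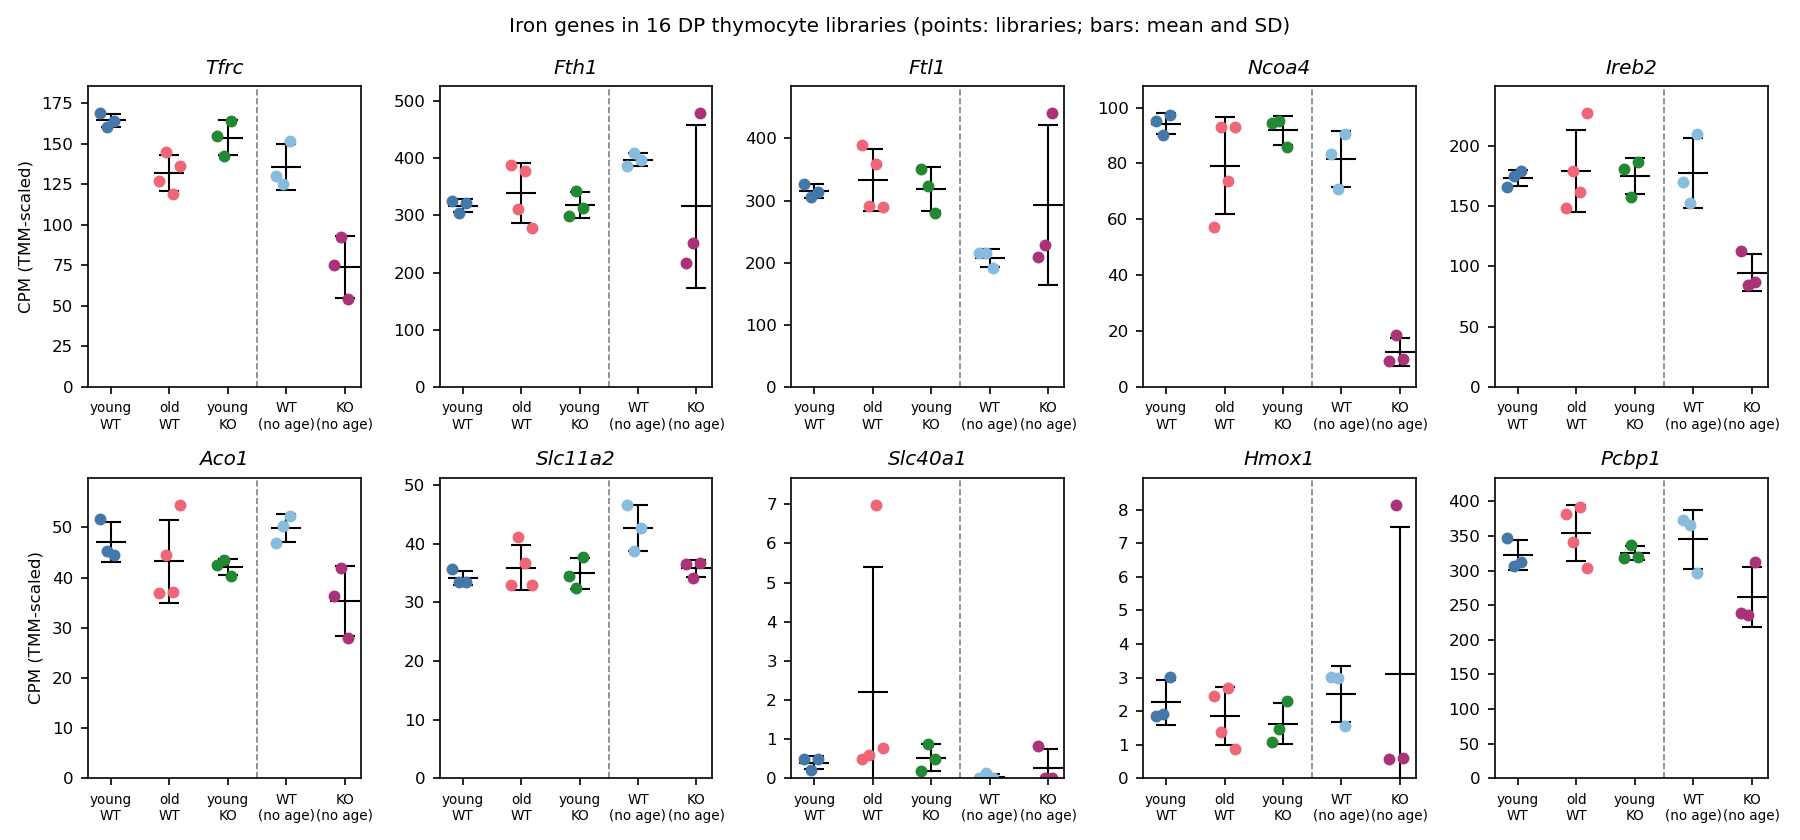
Each panel plots 1 gene, with CPM on a linear axis from 0, 1 point per library, and bars for the mean and SD of a group; bars that would pass below 0 end at the axis. The dashed line separates the set with an age from the set without. Ncoa4 lies between 9.08 and 18.4 CPM in the KO without an age and above 57 CPM in all other libraries, and Slc40a1 is at 6.98 CPM in 1 old WT library.

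Uptake was compared between old and young WT through Tfrc (chr16:32608920-32632794). Young WT libraries had 169, 161 and 164 CPM and old WT libraries 127, 145, 119 and 136. All 4 old libraries lay below the 3 young ones, and 9.78% of the 14228 genes tested had groups that do not overlap. The difference was -0.32 ± 0.09 on the log2 scale, or 1.25-fold, with an unadjusted p of 0.00302 in edgeR and an adjusted p of 0.23, so it did not pass the test. Over 18 alternative settings and left-out libraries it ranged from -0.37 to -0.26, with adjusted p between 0.0532 and 0.75, and was called in 0 of them.

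Ferritin and its chaperone gave no called difference with age. Fth1 (chr19:9980598-9985098) had 326, 304 and 321 CPM in young WT and 388, 312, 378 and 278 in old WT. For Ftl1 (chr7:45457944-45459884) the young libraries had 327, 306 and 313 CPM and the old ones 390, 292, 359 and 290. Old libraries lay on both sides of the young ones for both chains, and the log2 differences were 0.10 ± 0.12 and 0.08 ± 0.12 (95% intervals -0.15 to 0.35 and -0.18 to 0.33). Pcbp1 (chr6:86524492-86526321) had 322 ± 21.7 CPM in young and 355 ± 40.4 in old WT, a difference of 0.14 ± 0.10 (n = 3 and 4).

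Ncoa4 (chr14:32159865-32179855) had 95.3, 90.1 and 97.3 CPM in young WT and 57.2, 93.1, 73.8 and 92.9 in old WT. Old replicates 1 and 3 were below every young library, while replicates 2 and 4 lay among them, and the difference of -0.25 ± 0.14 was not called (adjusted p = 0.494, edgeR). Ireb2 (chr9:54863789-54912530) had 166, 175 and 179 CPM in young and 149, 179, 162 and 227 in old WT, and Aco1 (chr4:40143081-40198338) 51.7, 45.2 and 44.4 against 36.8, 44.5, 37.2 and 54.5. Both sensors overlapped between the ages, with differences of 0.05 ± 0.13 and -0.12 ± 0.13. Slc11a2 (chr15:100387898-100425072), at 34.2 ± 1.22 and 35.9 ± 3.90 CPM, differed by 0.07 ± 0.11.

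In total 0 of the 9 tested iron genes were called with age, where 0.253% of all 14228 genes were (36 genes). At an unadjusted p under 0.05, edgeR gave 1 of the 9, Tfrc, and 1716 genes in all. DESeq2 called 1.08% of genes and 0 of the 9. The median difference of the 9 genes was 0.05, beside 0.01 over all genes tested.

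Old WT libraries differed among themselves by more than young ones did for each of the 8 iron genes above 5 CPM. The coefficient of variation of Fth1 was 15.6% in old and 3.68% in young WT, that of Ncoa4 21.8% and 3.95%, and that of Ireb2 19.1% and 3.76%. Replicates 1 and 3 were the old libraries with the most Fth1, Ftl1 and Pcbp1 and the least Tfrc, Ncoa4, Ireb2 and Aco1. These 3 genes of high level in replicates 1 and 3 have principal transcripts of 929, 968 and 1830 bases, and the 4 of low level have 4890, 4065, 5770 and 3832 bases. Over all genes, those with transcripts above 4000 bases stood at -0.26 and -0.18 (log2) relative to those below 2000 bases in old replicates 1 and 3, and at 0.19 and 0.25 in replicates 2 and 4. With an offset for length and GC content, added after the data were seen, the age difference was -0.26 for Tfrc (adjusted p = 0.193), -0.22 for Ncoa4 (0.434), 0.069 for Fth1 (0.734) and 0.029 for Ftl1 (0.912).

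**Figure D2:**
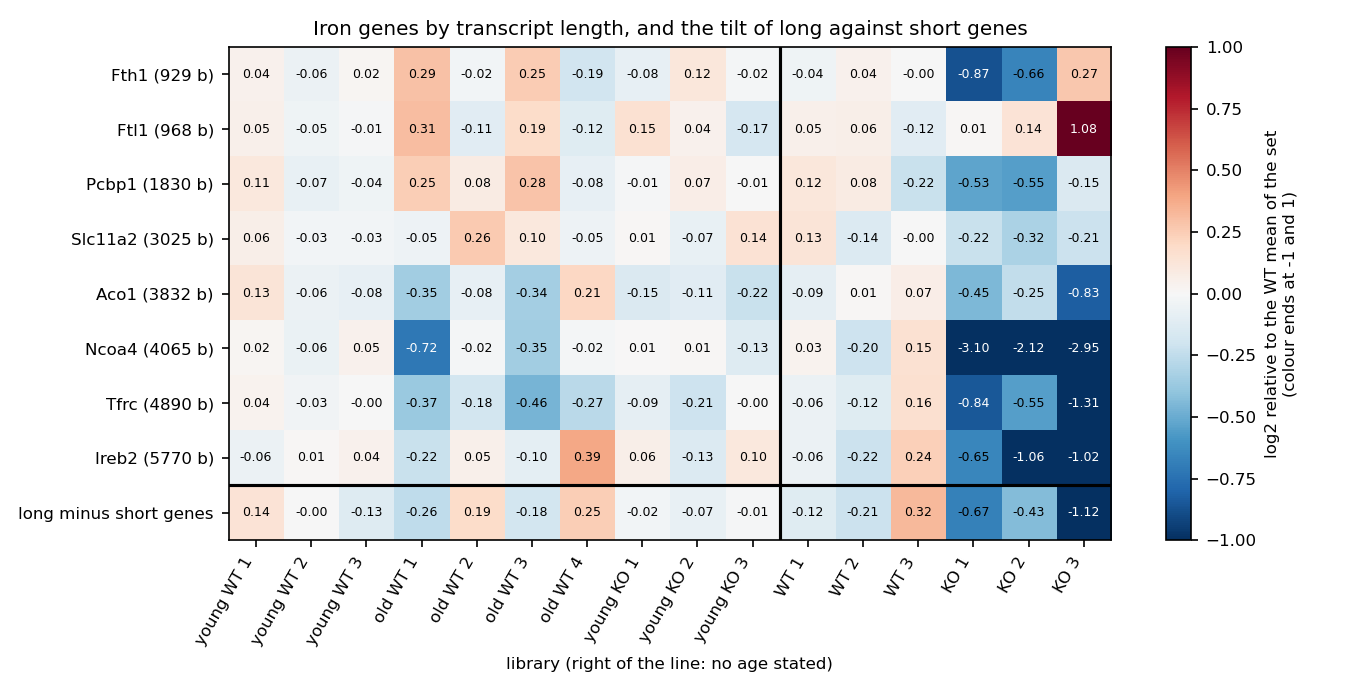
Rows are 8 iron genes ordered by transcript length, and columns are the 16 libraries; colours and numbers give the log2 level (0.5 CPM added) relative to the mean of young WT or, right of the line, of WT without an age. The last row gives the median log2 deviation of long minus short genes, which is -0.26 and -0.18 in old replicates 1 and 3 and between -0.43 and -1.12 in the KO without an age.

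Slc40a1 (chr1:45908068-45926523) was near its detection limit in most libraries and did not pass the filter on low counts. It had 5, 2 and 5 counts in young WT, 2, 9 and 5 in young KO, and 5, 6, 65 and 8 in old WT. Old replicate 3 therefore held 65 of the 84 counts of its group, or 6.98 CPM beside 0.489 to 0.773 in the other old libraries. The same library had summed levels of 272 CPM for 11 macrophage and myeloid markers, against 38.6 to 42.2 in the other old libraries, and of 46.3 against 6.86 to 9.51 for 6 markers of iron-recycling macrophages, cells known for high ferroportin. Erythroid markers were at 48.6 against 2.05 to 7.24 CPM, with 0 of the macrophage and myeloid markers undetected in it. Dendritic markers were at 747 against 47.4 to 110 CPM, and B cell markers at 2116 against 488 to 1002 CPM. Alignments that were not unique made up 9.18% of its entries, against 4.46% to 5.36% in the other libraries with an age. The part of other cells or of these alignments in its Slc40a1 was not tested. Hmox1 (chr8:75093621-75100589) was at 2.69 CPM in that library, the highest of the old WT libraries, beside 0.869 to 2.44 in the others and 1.85 to 3.02 in young WT. With no filter on low counts, Slc40a1 differed between the ages by 2.39 ± 1.19 (adjusted p = 0.688).

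The libraries labelled young KO were compared with the same 3 young WT libraries that the age comparison uses. Tfrc had 155, 143 and 164 CPM, Fth1 299, 344 and 313, Ftl1 351, 324 and 280, and Ncoa4 94.7, 95.1 and 85.9. Each of these 4 genes overlapped between young KO and young WT. No iron gene was called (0 of 9), where the background was 0% of 14228 genes. At an unadjusted p under 0.05 there were 0 of the 9 and 88 genes in all, and DESeq2 and limma-voom called 0 of the 9 as well.

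The 95% intervals bound what these young libraries could hold. The interval for Tfrc was -0.30 to 0.10, that for Fth1 -0.26 to 0.28, that for Ftl1 -0.26 to 0.29 and that for Ncoa4 -0.36 to 0.29 on the log2 scale. Ireb2 (180, 158 and 186 CPM) differed by 0.01 ± 0.14, Slc11a2 (34.5, 32.5 and 37.8) by 0.03 ± 0.11 and Pcbp1 (319, 337 and 320) by 0.02 ± 0.11. Aco1 had 42.5, 43.5 and 40.3 CPM, all below its young WT values, with a difference of -0.16 ± 0.14, and was the 1 of 9 genes whose groups do not overlap, beside 9.26% of all genes. Hmox1, at 1.09, 1.48 and 2.29 CPM, had the widest interval, from -1.42 to 0.47.

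In the set without an age, the ferritin cargo receptor Ncoa4 fell 6.53-fold in the KO. WT libraries had 83.5, 70.8 and 90.7 CPM (1278, 1113 and 1392 counts) and KO libraries 9.08, 18.4 and 10.1 CPM (110, 210 and 134 counts). The highest KO library lay far under the lowest WT library. The log2 difference was -2.71 ± 0.26 (adjusted p = 6.11e-05, edgeR). Of 9961 genes at 5 CPM or more in WT, 71 had a difference as low as this, counting Ncoa4. It was called with each of the 6 libraries left out (-3.17 to -2.55) and in 10 of 10 other settings (-3.01 to -2.05). No other annotated gene overlaps Ncoa4 in its genomic position. Sequence shared with genes elsewhere was not searched for.

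Changes were widespread in this comparison: edgeR called 53.9% of 16432 genes, 29.9% higher and 24% lower, and 4 of the 9 tested iron genes, all of them lower. Besides Ncoa4 these were Tfrc, Ireb2 and Aco1. Their median over the 9 was -0.40, beside 0.08 over all genes. Groups did not overlap for 5 of the 9, the 4 called and Slc11a2, where 63.8% of all genes did not overlap.

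Tfrc had 130, 125 and 152 CPM in WT and 75.4, 92.7 and 54.4 in the KO, with no overlap, and fell 1.83-fold (-0.87 ± 0.20, adjusted p = 0.00326). Ireb2 had 170, 152 and 209 CPM in WT and 112, 84.7 and 86.8 in the KO, and fell 1.87-fold (-0.90 ± 0.18, adjusted p = 0.00145). For Aco1 the values were 46.8, 50.3 and 52.3 against 36.3, 41.8 and 27.9 CPM (-0.49 ± 0.18, adjusted p = 0.0396). All 3 KO libraries were below all WT libraries for each of these genes. Among genes at 5 CPM or more, 20.7% had a lower value than Tfrc and 19.5% a lower value than Ireb2, so falls of this size were common here.

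Reads counted outside genes made up 11.8% to 15.0% of entries in the KO libraries and 7.23% to 7.60% in their WT, and the part of this in the values was not tested. Long transcripts were lower as a class in the KO libraries, by 0.67, 0.43 and 1.12 relative to short ones, against -0.21 to 0.32 in their WT. A per-library offset for length and GC content, as above, gave -0.11 for Tfrc (adjusted p = 0.506), -0.06 for Ireb2 (0.741) and -0.31 for Aco1 (0.128), and these 3 were no longer called. Ncoa4 stayed called at -2.05 ± 0.21 (adjusted p = 5.01e-05). The same fit called Fth1 (-0.76, adjusted p = 0.00439) and Pcbp1 (-0.88, adjusted p = 0.00013) lower, and 49.7% of 16419 genes. The call of Aco1 was also lost with DESeq2 size factors in edgeR (adjusted p = 0.0539), with library size alone (0.129), with TMM factors from genes of at least 5 CPM in WT (-0.23, adjusted p = 0.326), with a filter of 1 CPM in 3 libraries (0.0559) and without 4 of the 6 libraries (WT replicates 1, 2 and 3 and KO replicate 1; 0.0557 to 0.0756).

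The ferritin chains did not pass the test in the main comparison. Fth1 had 386, 409 and 397 CPM in WT and 217, 251 and 479 in the KO (-0.33 ± 0.25, adjusted p = 0.287). Ftl1 had 215, 216 and 191 against 209, 228 and 440 CPM (0.50 ± 0.25, adjusted p = 0.111). KO replicate 3 had the highest level of both chains in this set, and the other KO libraries had low Fth1 and Ftl1 close to WT. Without replicate 3, when 55.4% of genes were called, Fth1 was among them (-0.83, adjusted p = 0.00041) and the Ftl1 difference was 0.0077. Without it Pcbp1, which had 374, 366 and 296 CPM in WT and 239, 236 and 312 in the KO (-0.40 ± 0.17, adjusted p = 0.0651), was called too (-0.61, adjusted p = 0.00376). With no filter on low counts Fth1 (-0.53, adjusted p = 0.0104) and Pcbp1 (-0.59, adjusted p = 0.00438) were called, and Pcbp1 also with DESeq2 (adjusted p = 0.0475) and when WT replicate 3 was left out (0.0368). KO replicate 3 also had the strongest tilt against long genes.

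The sign of Ftl1 depended on the setting. TMM factors taken from genes of at least 5 CPM in WT, an alternative added after the data were seen, gave 0.76 (adjusted p = 0.0218), sex as a covariate gave 1.09 (adjusted p = 0.00027), and the length and GC offset gave -0.21 (adjusted p = 0.293). Those TMM factors moved the median of all genes from 0.08 to 0.35, and the share of called genes that were higher from 55.5% to 70.4%. Library size alone moved them to 0.17 and 61.3%, and the offset to 0.17 and 64.4%. The sexes read from Xist and Y-linked genes were 3 male in WT and 2 female and 1 male in the KO, so that sex and genotype are partly joined here.

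Ftl1 shares 355 exon bases with Gm10252 on the other strand, and the counting strand is not given in the sources used here. Gm10252 had 1878 to 3304 counts in libraries with an age and 4 to 21 in those without. The processed copy Ftl1-ps2 had at most 2 counts outside the KO without an age, and 23, 24 and 30 counts in it. Pcbp1 shares 75 exon bases with 1600020E01Rik, and Slc11a2 402 with Gm5475, both on the other strand, so reads of these genes may be split or lost.

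Transporters and heme oxygenase gave no called difference in this set. Slc11a2 had 46.6, 38.7 and 42.7 CPM in WT and 36.6, 34.1 and 36.7 in the KO (-0.25 ± 0.16, adjusted p = 0.209). Hmox1 had 3.004, 2.99 and 1.56 CPM in WT and 0.578, 8.14 and 0.605 in the KO (0.29 ± 0.83, adjusted p = 0.789). KO replicate 2 alone held 93 of the 108 Hmox1 counts of its group, and without it the gene was called lower (-2.16, adjusted p = 0.0118), as were 55.2% of genes in either direction. Slc40a1 had 0, 2 and 0 counts in WT and 10, 0 and 0 in the KO, too few to be tested, although the summed level of 6 iron-recycling macrophage markers was 13.7 to 19.1 CPM in the KO libraries and 6.06 to 6.55 in WT. Macrophage and myeloid markers summed to 37.0 to 45.3 against 18.1 to 27.0 CPM, with Adgre1 and Cd14 at 0 in KO replicate 3. The part of other cells in these values was not tested.

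Proliferation markers, which mark cells known for high transferrin receptor, summed to 1867 to 2268 CPM in the KO without an age and to 3411 to 3630 in its WT, with 8 of 12 called lower, where 24% of all genes were, and their part in the Tfrc difference was not tested. With the length and GC offset 7 of them were called lower and Mki67 higher (-0.39 in the main comparison, 0.34 with the offset, adjusted p = 0.048 and 0.0316). The fit with the offset called 49.7% of all genes in either direction. In old WT they summed to 2759 to 4992 CPM against 4612 to 5040 in young WT, with 0 of 12 called. Of the DP markers, Rag1 fell in the KO without an age (-2.44 ± 0.19, adjusted p = 4.11e-05), as did Cd4 (-0.79 ± 0.17, adjusted p = 0.00269), and Cd8a was not called (-0.21 ± 0.16, adjusted p = 0.29). B cell markers were called higher in 8 of 9 and dendritic markers in 7 of 8, where 29.9% of all genes were. The part of cell make-up in the iron genes of these libraries was not tested.

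The KO differences of the separate sets were tested against each other in 1 model. They were unequal for Ncoa4 (-2.50 ± 0.27, adjusted p = 2.82e-05), Ireb2 (-0.75 ± 0.19, adjusted p = 0.00615) and Tfrc (-0.60 ± 0.22, adjusted p = 0.0431), each lower in the KO without an age, which is 3 of 9 where 36.9% of 16557 genes were called, 19.2% higher and 17.7% lower. With the GC and length offset Ncoa4 remained unequal (-1.98), and Ireb2 (0.011) and Tfrc (0.065) were not called, where 33.4% of genes were. Tfrc was not called without WT replicate 3 of the set lacking an age (-0.57, adjusted p = 0.0766). Age, batch and the KO itself cannot be told apart between the sets, since the labels state neither age nor batch for the second.

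**Figure D3:**
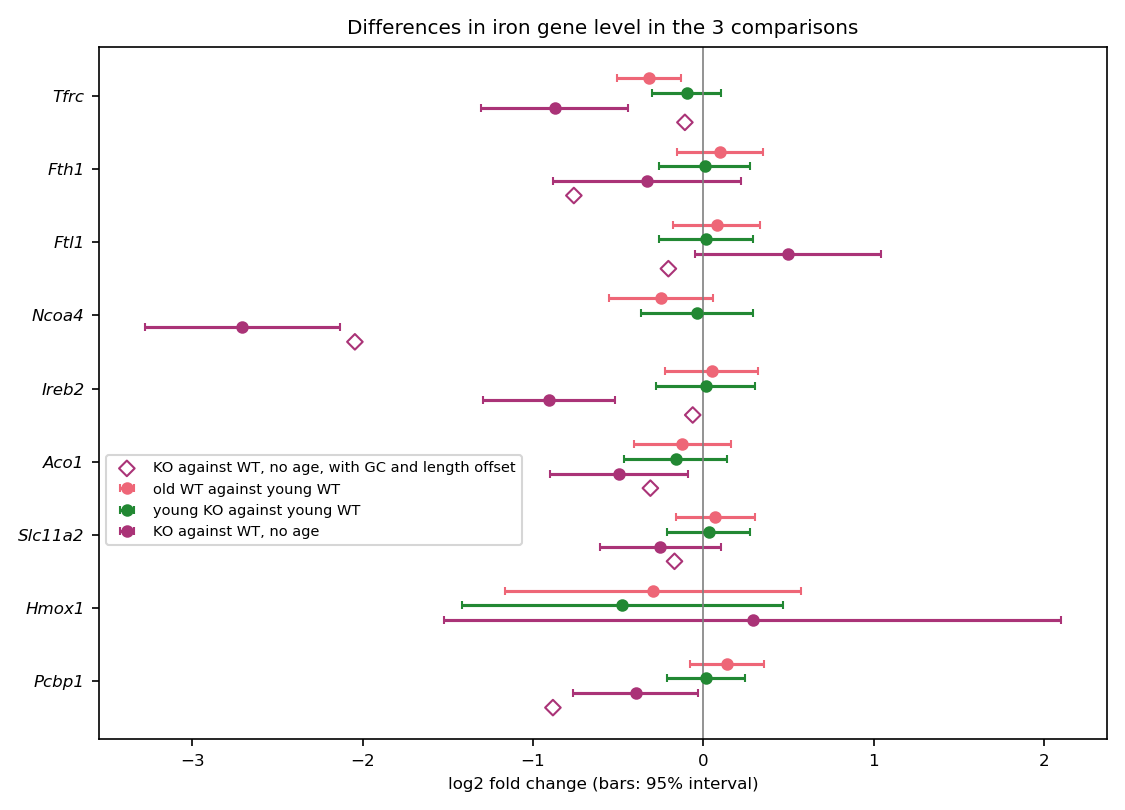
Points give the log2 fold change of each of the 9 tested iron genes in the 3 comparisons, with bars for the 95% interval, and open diamonds give the KO comparison without an age after the GC and length offset. Ncoa4 stands at -2.71, and at -2.05 with the offset, while Tfrc and Ireb2 move from -0.87 and -0.90 to -0.11 and -0.06.

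Ratios of counts within a library need no scaling for depth. They keep any tilt by length, and Tfrc (4890 bases) is far longer than Fth1 (929 bases). The Tfrc to Fth1 ratio, which sets uptake against storage mRNA, was 0.518, 0.529 and 0.511 in young WT and 0.327, 0.465, 0.315 and 0.491 in old WT. All old libraries were below all young ones, and the lowest were replicates 1 and 3, which have the tilt against long genes, with a mean log2 difference of -0.41 (exact permutation test, two-sided, p = 0.0571, the smallest possible with 3 against 4, and 0.3 after Benjamini-Hochberg adjustment over 6 tests). The young KO had 0.517, 0.415 and 0.523, which overlapped young WT (-0.11, exact p = 0.5). Without an age the ratio was 0.337, 0.306 and 0.382 in WT and 0.347, 0.369 and 0.114 in the KO (-0.48, exact p = 0.7), with replicate 3, the library of the strongest tilt, alone below WT. The part of the tilt in these ratios was not tested.

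The Fth1 to Ftl1 ratio was close to 1 in every library with an age, from 0.853 to 1.12. In the set without an age it was 1.80, 1.89 and 2.08 in WT and 1.04, 1.103 and 1.09 in the KO. These groups did not overlap and differed by -0.83 (log2), with an exact permutation p of 0.1, the smallest that 3 against 3 allows, and 0.3 after adjustment over the 6 tests. The KO libraries varied little in this ratio although both of its genes varied more than 2-fold among them. Age (0.02, exact p = 0.686) and the young KO (0.00, exact p = 1) gave no difference in it beyond the spread.

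**Figure D4:**
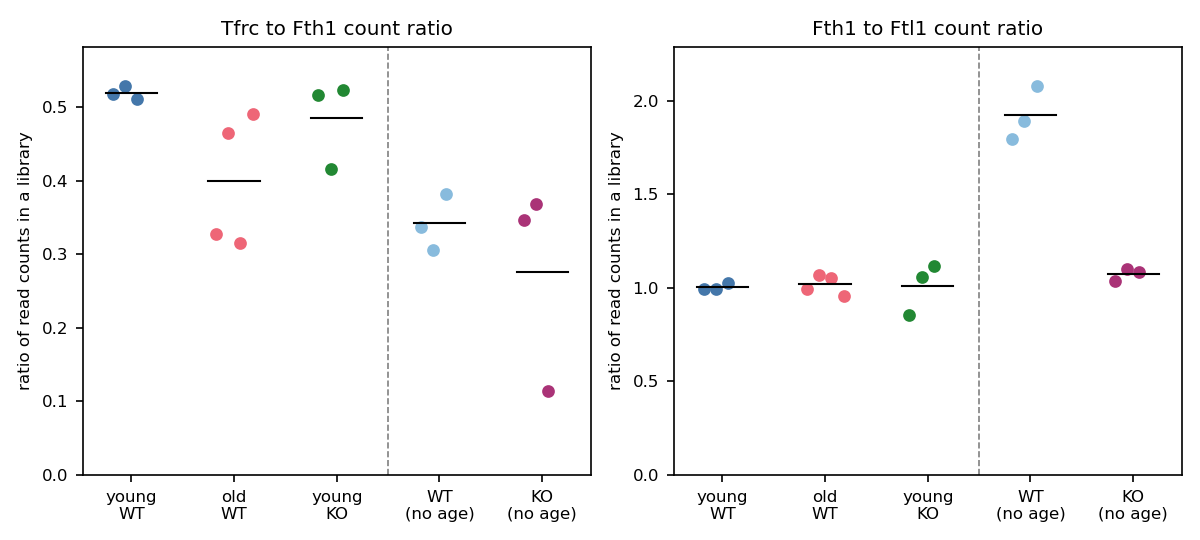
Points are libraries, horizontal lines are group means, and the axes start at 0. The Tfrc to Fth1 ratio (left) is 0.511 to 0.529 in young WT and 0.315 to 0.491 in old WT, and the Fth1 to Ftl1 ratio (right) is 1.80 to 2.08 in WT without an age and 1.04 to 1.103 in its KO.

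Other genes of the pathway were read from 6 lists. Genes known for an IRE in their mRNA (10, of which Tfrc, Slc11a2, Fth1, Ftl1 and Slc40a1 are already described) had 1 called of 9 tested with age, where 0.253% of all genes were. It was Cdc42bpa, a kinase gene, which fell from 9.001 ± 1.97 CPM in young WT to 1.87 ± 0.54 in old WT (-2.27 ± 0.27, adjusted p = 0.00239) and was called under 18 of 18 alternatives. In the KO without an age 1 of the 9 was called higher and 3 lower, where 53.9% of all genes were called in either direction. Among them, Cdc14a, a phosphatase gene, fell (-0.59 ± 0.19, adjusted p = 0.0201). Epas1, which encodes HIF2-alpha, rose from 4.68 to 8.92 CPM (0.93 ± 0.27, adjusted p = 0.0138). With the offset Cdc14a was at 0.10 and not called.

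Genes of IRP turnover and ferritin regulation had 7 of 11 called in the KO without an age, all lower, where 24% of all genes were called lower and 53.9% in either direction. Their median was -0.56, beside 0.08 over all genes. Fbxl5, the iron-sensing ligase subunit that marks IRP2 for degradation, went from 101 ± 6.37 to 68.2 ± 11.2 CPM, and Herc2, a ligase that acts on Ncoa4 and Fbxl5, from 266 ± 36.7 to 92.5 ± 19.7. Bach1, the heme-sensing repressor of ferritin and Hmox1 genes, went from 306 ± 43.0 to 95.5 ± 40.2 CPM, and Tax1bp1, an autophagy receptor used in ferritin turnover, from 309 ± 47.9 to 160 ± 21.1. The others called were Hif1a (-1.04), Zfp36l1 (-1.12) and Cul1 (-0.53). With the length and GC offset, when 49.7% of all genes were called, 3 of the 11 were lower (Herc2, Bach1 and Zfp36l1) and 1 higher. Tax1bp1 (-0.32, adjusted p = 0.0594), Hif1a (-0.28), Fbxl5 (-0.041) and Cul1 (0.046) were then not called. With age 0 of 11 were called; Zfp36l1, which encodes an RNA decay factor, was at 0.57 ± 0.11 (adjusted p = 0.058) and Nfe2l2, which encodes NRF2, at 0.49 ± 0.10 (adjusted p = 0.0942).

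Of 20 genes of iron import, export and trafficking, 13 were tested with age and 0 called, and the smallest adjusted p was that of Glrx3, an iron chaperone (-0.29 ± 0.12, adjusted p = 0.373). In the KO without an age 5 of 15 were called higher and 5 lower, with a median of -0.26, and 53.9% of all genes were called, so the count is near the background. Pcbp2, a paralog of Pcbp1 and likewise an iron chaperone, went from 256 ± 12.6 to 154 ± 23.7 CPM (-0.73 ± 0.16, adjusted p = 0.00251). Slc39a8, a metal importer, went from 6.81 to 2.91 CPM, Exoc6, an exocyst subunit used in transferrin recycling, from 21.7 to 10.3, and Prnp, the prion protein, from 7.90 to 4.19. Bola2, which with Glrx3 chaperones iron-sulfur clusters, rose from 12.8 ± 3.08 to 40.6 ± 11.6 CPM. Cp (ceruloplasmin, a ferroxidase) rose from 1.04 to 6.13 CPM, while Hamp (hepcidin) and Tfr2, each called higher, stayed at 1.15 and 1.30 CPM in the KO. With the length and GC offset 4 of the 15 were called higher and 2 lower, where 49.7% of all genes were called in either direction.

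Heme genes had 1 of 16 called with age, where 0.253% of all genes were: Slc48a1, a lysosomal heme transporter, rose from 44.2 ± 1.12 to 60.5 ± 1.60 CPM (0.45 ± 0.08, adjusted p = 0.0454). It was called in only 5 of 18 alternatives, with adjusted p from 0.000387 to 0.285, and missed the threshold when young replicate 1, 2 or 3 or old replicate 1, 2 or 3 was left out. In the KO without an age 5 of 17 were called higher and 5 lower, with a median of -0.00, again near the background of 53.9%. Among the lower were Cpox, an enzyme of heme synthesis (34.0 ± 2.22 to 10.6 ± 0.71 CPM), Hmox2, the constitutive heme oxygenase (57.3 ± 4.41 to 27.8 ± 10.4), Flvcr1, described as a heme and choline transporter (51.4 to 29.9), and Pgrmc1, a heme-binding protein (59.2 to 37.2). Among the higher were Ppox, an enzyme of heme synthesis (59.6 to 121 CPM), Blvrb, a biliverdin reductase (3.68 to 8.07), and Flvcr2, a relative of Flvcr1 (0.0647 to 2.30). With the length and GC offset 3 were called higher and 3 lower, where 49.7% of all genes were called in either direction.

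Mitochondrial iron and iron-sulfur cluster genes had 0 of 23 called with age, and 4 higher and 4 lower of 23 in the KO without an age, with a median of 0.05, a smaller share than the 53.9% of all genes called. Slc25a28, mitoferrin 2, which carries iron into mitochondria, rose from 33.1 ± 7.45 to 115 ± 20.2 CPM (1.80 ± 0.21, adjusted p = 0.000115), and Fdxr, ferredoxin reductase, from 27.4 ± 2.58 to 76.3 ± 18.2 (1.48 ± 0.20). Iba57, a late factor of cluster assembly, fell from 14.5 ± 0.59 to 6.46 ± 1.62 CPM. These 3 genes kept their calls with the length and GC offset. Further calls were Nfu1, a cluster carrier (0.56), and Fdx1l, a ferredoxin (1.41), higher, and Hspa9, a mitochondrial chaperone (-0.39), and Fdx1, also a ferredoxin (-0.63), lower. Nfu1 (0.47, adjusted p = 0.0455) and Fdx1 (-0.71, adjusted p = 0.0388) also kept theirs with the offset, and Fdx1l and Hspa9 did not. With it 5 of the 23 were called higher and 4 lower, where 49.7% of all genes were called in either direction.

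Among 6 tested targets of NRF2, 2 were called lower in the KO without an age, where 24% of all genes were, and 0 with age. They were Txnrd1, thioredoxin reductase (103 ± 5.56 to 51.3 ± 6.53 CPM), and Slc7a11, the cystine importer (203 ± 24.8 to 103 ± 21.6), of which the second was not called with the offset (-0.11, adjusted p = 0.522). With the offset 1 of the 6 targets was called lower and 1, Gclm, higher (0.72, adjusted p = 0.0173), where 49.7% of all genes were called. In the young KO, 0 genes of all 6 lists were called.

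**Figure D5:**
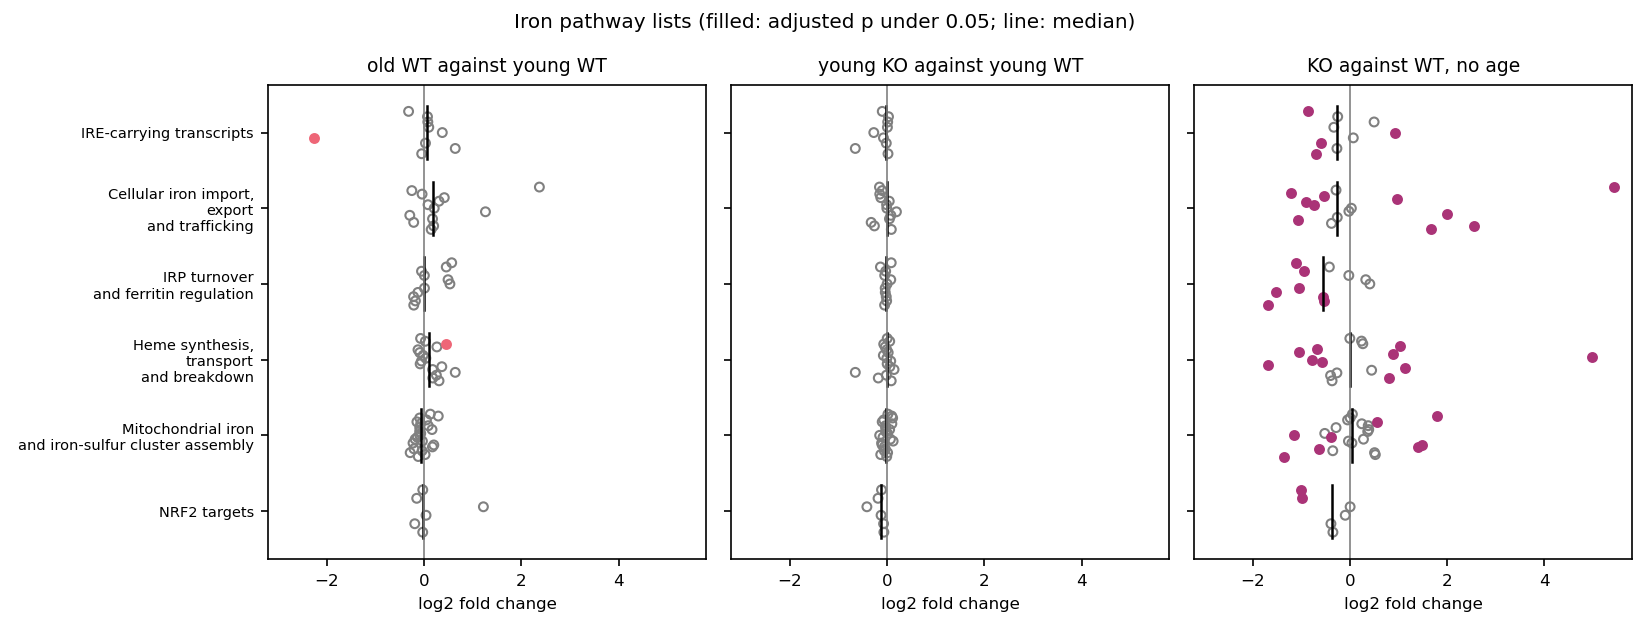
Each point is a tested gene of 1 of 6 iron lists, placed by its log2 fold change in 3 comparisons; filled points passed an adjusted p of 0.05 and vertical lines are list medians. In the KO comparison without an age the IRP turnover list has 7 filled points, all left of 0, while the other comparisons have 2 filled points (Cdc42bpa and Slc48a1) in all.

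The genes whose level across the 10 libraries with an age was most like that of Tfrc, among 10734 genes of at least 5 CPM, were Gm42748 (Pearson r 0.945, Spearman rho 0.915), Trim35 (0.921 and 0.867), Caprin1 (0.915 and 0.842), Calu (0.913 and 0.806) and Ncbp3 (0.912 and 0.915). Without the 2 libraries farthest from the median of Tfrc, r was 0.731 to 0.906 over 8 libraries. Each of the 5 had a lower mean in old than in young WT, for example 640 against 778 CPM of Caprin1. They were chosen for likeness to Tfrc over these same libraries, so this is not a separate result. The points share libraries, their scaling and the split between ages.

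The letters GGACT, a form of the motif that METTL3 methylates, occurred 2 times in the 4065 bases of the Ncoa4 transcript (0.492 per kilobase), 6 times in Tfrc (1.23), 4 times in Ireb2 (0.693) and 6 times in Aco1 (1.57). Fth1 and Hmox1 held 0, Ftl1 1, Pcbp1 2, Slc11a2 3 and Slc40a1 6. The median of 21901 coding genes was 1.01 per kilobase, and 86.8% held at least 1. Only the mRNA strand was searched, and methylation itself was not measured here.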

How the data were processed

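The authors deposited raw read counts per gene for each library. Alignment used HISAT2 2.0.5 and the mm10 build, per the submitters' processing notes. The counting program, its annotation and strand setting were not given in the sources used here. RNA was extracted with Trizol and columns for BGI libraries, per the labels' protocols. Groups came from the sample titles.

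Counts were tested in edgeR 4.0.16 (R 4.3.3): filterByExpr, TMM, robust quasi-likelihood fit, Benjamini-Hochberg adjustment over all genes tested, threshold 0.05, two-sided. The 10 libraries with an age were fitted together, the 6 without apart, and the interaction on genes listed in both sets. Differences are log2 fold changes ± SE, and levels mean ± SD. Count ratios used exact permutation tests. Alternatives were DESeq2 1.42.0 and its size factors, library size alone, other filters, limma-voom 3.58.1, a replicate block, sex as a covariate, 2 groups alone and each library left out; TMM from genes of 5 CPM and the length and GC offset (99.9% of tested genes had both) came later, once values had been seen. Recovery of set changes was tested on simulated data.

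The members and lists were chosen with earlier results of these data known. All 10 iron genes are named throughout; from each list, genes called in edgeR are named (where over 8, the 4 with the smallest p in each direction), or up to 4 by p where none was. A few genes that this rule names are not reported here. Coordinates and transcripts come from GENCODE M21; lengths are of 1 principal transcript per gene. Tables came from pandas 2.3.3, permutation tests from scipy 1.17.1 and figures from matplotlib 3.10.9, under Python 3.11.15.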

Additional observations from a re-analysis of the deposited data

Results flagged for a closer look

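In old WT, replicate 3 stood apart from the other libraries in Slc40a1 at 6.98 CPM: its gap to the next library was 0.956 of the group's whole range, above the limit of 0.829 that Dixon's test sets for 4 samples. The limit was applied in old WT to each of the 10 iron genes and to both count ratios, and only Slc40a1 passed it. For each of these taken singly, chance passes that limit in about 1 of 20 groups.

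The KO difference was unequal between the set with no age and the young set, by the interaction in edgeR, for Ncoa4 (-2.50, adjusted p = 2.82e-05), Ireb2 (-0.75, adjusted p = 0.00615) and Tfrc (-0.60, adjusted p = 0.0431). Of these, Ncoa4 kept its call under all 22 alternatives, Ireb2 under 21 and Tfrc under 18.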

How the results depend on the processing

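No iron gene was called with age or in the young KO under any alternative run, and Ncoa4 kept its direction and call in the KO without an age under all 16. There the number of called iron genes was 3 to 6 with a library left out and 3 to 6 in the other settings, beside 4. Over all genes, 7746 of 18096 to 9866 of 17805 were called with a library left out. The other settings called from 10731 of 33031 (no filter on low counts) to 9294 of 16432 (limma-voom). The number of iron genes for the interaction was 2 to 5 with a library left out, beside 3, and 5 without KO replicate 2 or 3. Over all genes it called 5225 of 18324 to 7349 of 17059 with a library left out. Replicate numbers did not pair the samples (same-number correlations from -0.45 to 0.234). With the replicate block, 3 iron genes were called in the KO without an age (Aco1 lost, adjusted p = 0.0777) and 2 in the interaction (Tfrc lost, adjusted p = 0.0914), and Ireb2 with age was -0.086. Over all genes, the block called 7642 of 16432 in that KO and 4543 of 16557 in the interaction.

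Signs turned for uncalled genes near 0 and for some called ones; the cause was not tested. With the length and GC offset they turned in the young KO for Fth1 (-0.024), Ftl1 (-0.012) and Ireb2 (-0.0020), in the KO without an age for Ftl1 (-0.21), Cdc14a (0.096), Cul1 (0.046), Hspa9 (0.095) and Mki67 (0.34; called lower before and higher with the offset), and in the interaction for Tfrc (0.065), Ireb2 (0.011) and Slc7a11 (0.16). With TMM from genes of 5 CPM, Slc11a2 was 0.016 in the KO without an age and 0.06 in the interaction, where Aco1 was 0.011. Sex as a covariate turned Fth1 (0.27) and Hmox1 (-2.04); limma-voom turned Hmox1 (-0.79, and -0.13 in the interaction), as did the block (-0.61). With ferritin copies added the Fth1 to Ftl1 difference in the young KO was 0.0012.

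With libraries left out, the Fth1 to Ftl1 difference ranged from -0.0054 to 0.047 with age and -0.080 to 0.12 in the young KO, and the Tfrc to Fth1 difference from -0.17 to 0.0017 in the young KO and -0.78 to 0.071 in the KO without an age. Also by a left-out library, the range with age was -0.012 to 0.13 for Ftl1, -0.097 to 0.12 for Ireb2, -0.0047 to 0.11 for Slc11a2, -0.087 to 0.043 for G6pdx and -0.42 to 0.042 for Slc7a11. In the young KO it was -0.049 to 0.050 for Fth1, -0.063 to 0.098 for Ftl1, -0.068 to 0.0097 for Ncoa4, -0.035 to 0.081 for Ireb2, -0.030 to 0.080 for Slc11a2, -0.019 to 0.073 for Pcbp1, -0.29 to 0.093 for Cdc42bpa, -0.010 to 0.17 for Nfe2l2 and -0.17 to 6.4e-06 for Txnrd1. Hmox1 ranged from -2.16 to 0.75 in the KO without an age and from -1.63 to 1.25 in the interaction.

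Depth limits Slc40a1 (0 to 65 counts a library) and Hmox1 (108 counts in 3 KO libraries without an age), for which intervals are wide. Over all settings, 591 of 657 values of single iron genes kept direction and call. This total includes the age and young KO comparisons, where no iron gene had a call to lose. With the length and GC offset, Tfrc, Ireb2 and Aco1 lost theirs in the KO without an age.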
